A study of Mus musculus with 28 samples.

Results

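GFP+ stromal cells of the mouse mammary gland were compared between animals given estradiol plus progesterone (E+P) and untreated animals, gene by gene across the genome. The comparison rests on 7 of the 28 sequenced libraries, the stromal eGFP libraries of 4 untreated and 3 E+P-treated mice, each from a different animal. All mice carried PdgfrαCre and the R26mTmG reporter, in which a cell that has expressed Cre switches from membrane tdTomato to membrane GFP. The Cre was active throughout life, so GFP marks cells that have used the Pdgfrα promoter at any time and the progeny of these cells, not only cells that express Pdgfra when sorted. The stromal fraction was the part of the gland that carried neither EpCAM nor CD49f after CD31+, Ter119+ and CD45+ cells had been removed. The strain is labelled C57BL/6, and age is not given by sample. The paper calls the sequenced mice adult and describes lineage tracing in this model in females. The methods describe E+P as pellets of 0.14 mg estradiol and 14 mg progesterone worn for 14 days, where they speak of wild-type females, and the untreated group is labelled only as untreated. Estradiol and progesterone were given together, so their effects cannot be told apart.

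Estradiol and progesterone act through nuclear receptors, Esr1 and Pgr, which bind DNA and alter transcription of their target genes. In the cycling and pregnant gland these hormones drive growth and side branching of the epithelium, and much of the signal is passed on by local factors from hormone-sensing cells. Fibroblasts and adipocyte progenitors around the ducts express the estrogen receptor, supply growth factors such as IGF1 and build the matrix into which the ducts grow.

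The 7 libraries held between 11787616 and 22514228 counted reads, with medians of 15329083.5 in the untreated and 21966749 in the E+P group, so the treated libraries were on the whole deeper. At these depths 3 reads correspond to 0.133 to 0.255 CPM, that is, reads scaled by library depth. This limit reflects counting error alone, since no molecular identifiers were used. Mitochondrial genes took 4.30% to 5.09% of the counts in every library. The summed level of 12 fibroblast markers, among them Pdgfra and the fibrillar collagens, lay between 30376 and 57428 CPM, against 25.0 to 119 CPM in the GFP+ luminal libraries. Markers of other cells summed to lower levels. The 9 immune markers summed to at most 7.21 CPM and the 6 adipocyte markers to at most 55.6 CPM. Higher sums were reached by the 8 endothelial markers, at most 238 CPM, and the 9 pericyte and smooth muscle markers, at most 276 CPM. The 12 luminal epithelial markers summed to 20.7 to 96.2 CPM in untreated libraries, highest in untreated replicate 2, and to 4.998 to 7.80 CPM after E+P. In a bulk library, fewer cells of a type and less RNA per cell cannot be told apart.

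Of 15199 genes with enough reads to be tested, 187 passed an adjusted p of 0.01 in edgeR's quasi-likelihood test, which is 1.23%. After E+P, 112 of these genes rose (0.737% of the genes tested) and 75 fell (0.493%). The change exceeded 2-fold for 79 of the higher and 61 of the lower genes. The groups did not overlap for any of the 187, while 14.2% of all genes tested had groups that did not overlap (7.34% with every E+P library above, 6.89% with every E+P library below). The median log2 fold change over all genes tested was -0.01. The number of genes called leaned on single libraries: it was 93 without untreated replicate 1, 90 without E+P replicate 1 and 81 without E+P replicate 2. With the tdTomato+ stromal libraries in the same fit 41 genes passed, 40 of them among the 187. That fit uses a shared estimate of spread for each gene, so variation among tdTomato+ libraries enters its p-values for GFP+ stroma. Since the groups of the 187 genes did not overlap, leaving out a library could hardly change their direction, and it changed for none. With every library left out in turn, 66 of the 187 passed the threshold each time.

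**Figure D1:**
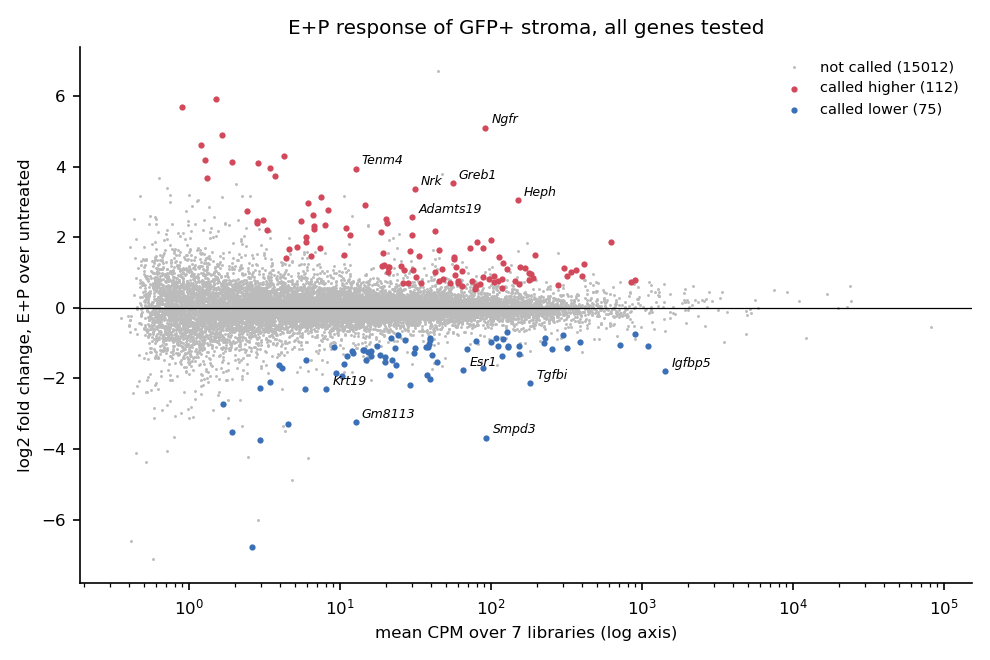
Log2 fold change of E+P over untreated GFP+ stroma (vertical axis) against mean CPM over the 7 libraries (horizontal log axis), 1 point per gene tested. Red points are the 112 genes called higher, blue points the 75 called lower and grey points the genes not called, with some genes of the text labelled.

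Among called genes at 10 CPM or more, Ngfr had the largest increase. It encodes the p75 receptor for neurotrophins (GRCm38 chromosome 11, 95568818 to 95587735). Ngfr was measured at 3.96, 6.57, 10.4 and 2.27 CPM in untreated replicates 1 to 4 and at 199, 215 and 203 CPM in E+P replicates 1 to 3. All E+P libraries lay far above all untreated ones, with means of 5.80 ± 3.54 (SD, n = 4) and 206 ± 8.596 (SD, n = 3) CPM, a 35.5-fold difference. The log2 fold change was 5.11 with a standard error (SE) of 0.44, at an adjusted p of 0.0026 (edgeR). This call was kept in 3 of the 7 fits that left out a library, where the highest adjusted p was 0.0176. Ntrk3, the receptor kinase for neurotrophin-3, fell from 12.7 to 17.9 CPM to between 2.13 and 6.47 CPM (log2 fold change -1.92, SE 0.33, edgeR adjusted p 0.0076). The Ntrk3 call was kept in 1 of the 7 fits that left out a library, where the highest edgeR adjusted p was 0.0589.

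Heph, which encodes the copper-dependent ferroxidase hephaestin that works in cellular iron export (chromosome X, 96455359 to 96574485), had the smallest p of all genes. Its untreated libraries read 33.6, 38.4, 39.9 and 32.3 CPM and its E+P libraries 310.1, 315 and 281 CPM. The replicates of each group lay close together and the groups were 8.37-fold apart (log2 fold change 3.06, SE 0.11, edgeR adjusted p 5.2e-09). Nrk, a kinase gene best known from the placenta (chromosome X, 138914430 to 139010532), was at 9.18, 6.64, 6.03 and 3.08 CPM untreated. After E+P Nrk was at 76.4, 49.8 and 67.1 CPM. None of these libraries overlapped across groups, and the log2 fold change was 3.36 (SE 0.30, edgeR adjusted p 4.1e-04).

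Greb1, a gene named for its induction by estrogen in breast cancer cells and a cofactor of the estrogen receptor, also rose (chromosome 12, 16670615 to 16800886). It was at 5.81, 9.34, 14.3 and 10.1 CPM in untreated and at 136, 95.4 and 117 CPM in E+P libraries. All treated libraries lay far above the untreated ones, and the log2 fold change was 3.54 (SE 0.26, edgeR adjusted p 1.5e-04). Grk3, a kinase that turns off G protein-coupled receptors, rose from at most 2.98 CPM to at least 12.9 CPM, with a log2 fold change of 3.14. Galnt13, which starts O-linked glycan chains, rose with a log2 fold change of 2.76, and Mmp15, a membrane-bound metalloprotease, with 2.65.

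Among genes that fell, Smpd3 had the largest fold change at 10 CPM or more (chromosome 8, 106252548 to 106337988). It encodes neutral sphingomyelinase 2, which makes ceramide from sphingomyelin. Untreated libraries held 195, 148.6, 123.2 and 147 CPM and E+P libraries 7.51, 13.4 and 14.7 CPM. The untreated mean was 12.9 times the E+P mean, with a log2 fold change of -3.68 (SE 0.25, edgeR adjusted p 7.3e-05). Tgfbi, a secreted matrix protein named for its induction by TGF-β, was at 287, 247, 216 and 335 CPM untreated and 40.0, 55.9 and 89.5 CPM after E+P (log2 fold change -2.13, SE 0.29, edgeR adjusted p 0.0072). Both genes were separated completely by treatment. Smpd3 was called in 7 and Tgfbi in 3 of the 7 fits that left out a library. In the fit with tdTomato+ stroma the edgeR adjusted p was 0.161 for Smpd3 and 0.0579 for Tgfbi. Smaller folds were seen for Car8, a carbonic anhydrase relative without the enzyme activity (log2 fold change -2.17), Limch1, a regulator of actomyosin (-2.02), Adamtsl3, a matrix protein (-1.91), and Rcan2, an inhibitor of calcineurin (-1.89). Car8 and Adamtsl3 were each called in 2 of the 7 fits that left out a library. The predicted gene Gm8113 fell from between 15.3 and 33.0 CPM to between 1.13 and 2.64 CPM (log2 fold change -3.23). Its edgeR adjusted p in the fit with tdTomato+ stroma was 0.175.

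**Figure D2:**
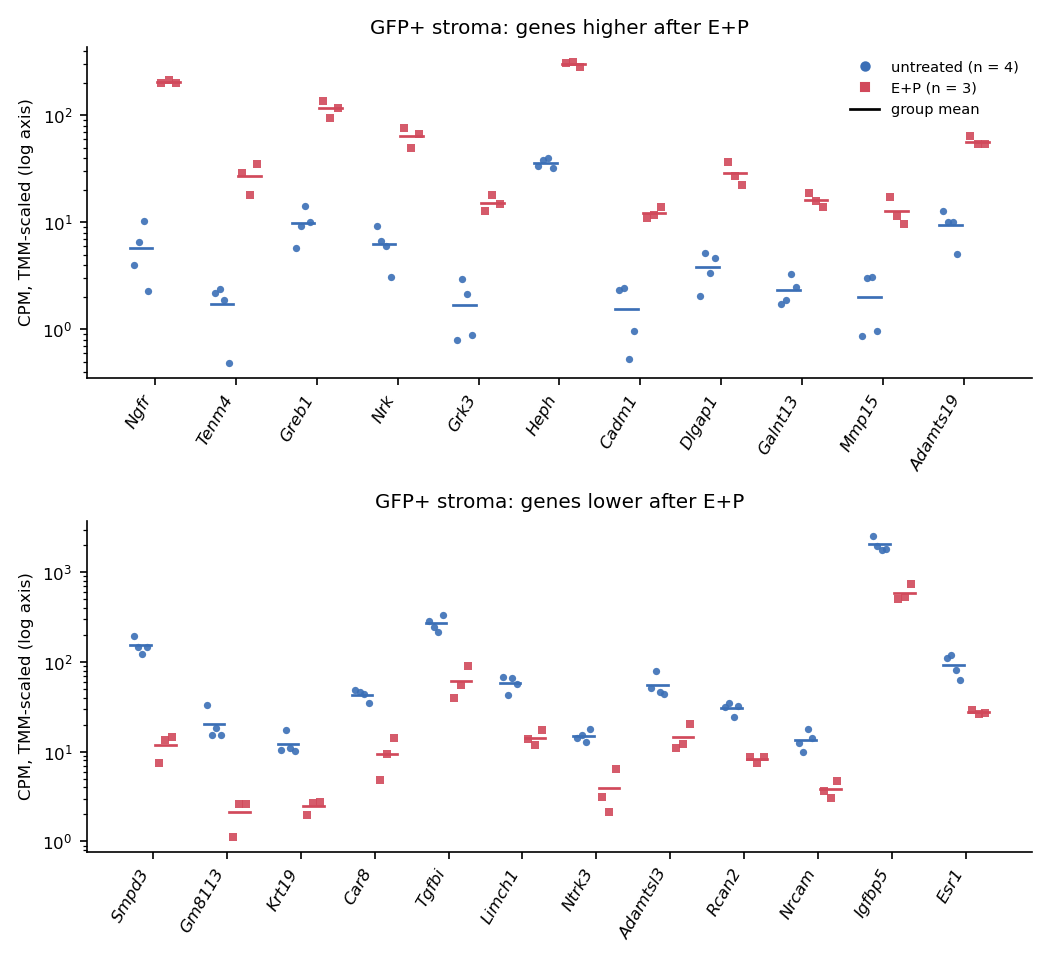
CPM in each library (log axis) of genes with the largest increases (top) and the largest decreases (bottom) among called genes at 10 CPM or more. Circles are untreated libraries (n = 4), squares E+P libraries (n = 3) and bars group means, and in every gene the groups stand apart.

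The hormone receptors did not move together. Esr1 (chromosome 10, 4611593 to 5005614) was at 109.7, 119, 81.2 and 62.5 CPM in the untreated and at 29.2, 26.7 and 26.9 CPM in the E+P libraries. The treated libraries were nearly level and all below the untreated ones, with means of 27.6 ± 1.40 (SD, n = 3) and 93.1 ± 26.0 (SD, n = 4) CPM. Esr1 fell by 1.76 on the log2 scale (SE 0.20, edgeR adjusted p 9.6e-04) and was called in 6 of the 7 fits that left out a library. Pgr, a classical estrogen target that encodes the progesterone receptor, was at 7.07, 15.8, 18.1 and 3.97 CPM without and 37.6, 29.5 and 32.9 CPM with E+P. Its groups did not overlap, but untreated libraries spread widely and the adjusted p was 0.184 (log2 fold change 1.55, SE 0.47, edgeR). The glucocorticoid receptor Nr3c1 had a log2 fold change of -0.03 (edgeR adjusted p 0.932), and the prolactin receptor Prlr spread from 2.19 to 22.5 CPM over the untreated libraries alone. Of 19 receptors and cofactors tested, Greb1 rose and Esr1 fell, which is 10.5% against 1.23% of all genes, and the median log2 fold change of the list was -0.03.

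Of 18 genes tested of the insulin-like growth factor (IGF) system, 3 fell and 0 rose (16.7%, median log2 fold change -0.20). Igf1, the growth factor itself, was at 224, 208, 203 and 157 CPM untreated and at 118, 74.5 and 89.1 CPM after E+P. These values did not overlap, and Igf1 fell by 1.08 on the log2 scale (SE 0.16, edgeR adjusted p 0.0031). It passed in 3 of the 7 fits that left out a library, with a highest adjusted p of 0.0164. Igfbp5, a binding protein that holds IGF in the matrix (chromosome 1, 72857932 to 72874884), dropped from 2567, 1985, 1791 and 1843 CPM to 499, 530.3 and 747 CPM. Each treated library lay far below every untreated one, and the log2 fold change was -1.79 (SE 0.18, edgeR adjusted p 1.0e-04). Igfbp2 fell from between 6.34 and 9.21 CPM to between 0.213 and 1.03 CPM (log2 fold change -3.29, edgeR adjusted p 4.1e-04). The receptor Igf1r (log2 fold change -0.29), Igfbp3 (-1.61), Igfbp4 (0.44) and Igfbp6 (0.95) did not pass, with edgeR adjusted p of 0.269, 0.041, 0.143 and 0.031.

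**Figure D3:**
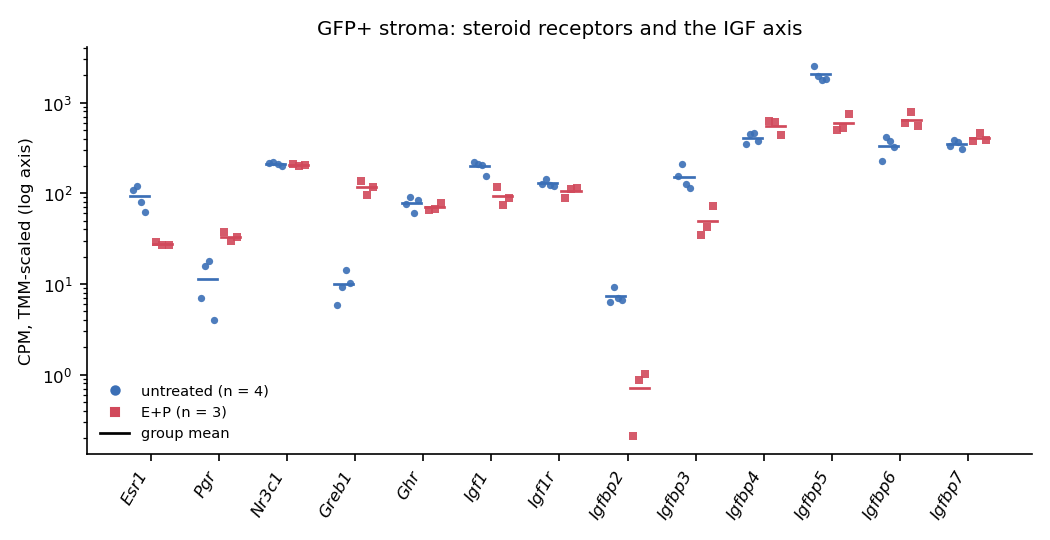
CPM in each library (log axis) of steroid and growth hormone receptors, Greb1 and IGF system genes in GFP+ stroma. Circles are untreated libraries (n = 4), squares E+P libraries (n = 3) and bars group means; Esr1, Igf1, Igfbp2 and Igfbp5 lie lower and Greb1 higher after E+P, while Nr3c1 overlaps.

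Of 43 growth factor genes tested, edgeR called Igf1 alone (2.33%), voom 3 and DESeq2 8, of which 6 were higher and 2 lower. Nrg1, a ligand of ERBB receptors, was at 4.76, 2.57, 10.7 and 3.97 CPM untreated and at 31.0, 27.7 and 26.4 CPM after E+P, with groups apart but an adjusted p of 0.021 (log2 fold change 2.34, edgeR). The R-spondin gene Rspo2, whose product amplifies Wnt signals, had a log2 fold change of 3.18 (edgeR adjusted p 0.013) at no more than 6.95 CPM. In the Wnt list, 1 of 41 genes rose and 1 fell (4.88%, median log2 fold change -0.17). These were the ligands Wnt9b, up from at most 1.12 CPM to at least 4.16 CPM, and Wnt10b, down from at least 5.35 CPM to at most 2.40 CPM. Among 52 genes of the TGF-β and BMP pathway the receptor Tgfbr2 rose (log2 fold change 0.73) and the target Tgfbi fell (3.85% called). The PDGF ligand Pdgfd had a log2 fold change of 0.73 (edgeR adjusted p 0.023) and Pdgfc of -1.06 (edgeR adjusted p 0.072).

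Pdgfra, whose promoter drives the Cre, was at 1592 to 1954 CPM untreated and 1943 to 2144 CPM after E+P, and did not pass (log2 fold change 0.22, edgeR adjusted p 0.478). Alx4, a homeobox transcription factor of mesenchyme that the study follows in this stroma, was at 33.4, 32.6, 48.6 and 33.2 CPM untreated and at 109, 149.3 and 99.6 CPM after E+P. It rose by a log2 fold change of 1.69 (SE 0.17, edgeR adjusted p 2.6e-04), but in the fit with tdTomato+ stroma its adjusted p was 0.135. Prrx2, another mesenchymal homeobox gene, rose with a log2 fold change of 1.49. These were the 2 called by edgeR of 56 mesenchymal transcription factors (3.57%), of which voom called 2 and DESeq2 7. Prrx1 did not pass (log2 fold change -0.37, edgeR adjusted p 0.124). Of 20 genes tested that the study names, a list that the study chose with these samples in hand, Alx4 rose and Esr1 fell (10.0%).

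Of 18 markers of adipocyte progenitors, edgeR called Dpp4, Pi16 and Sema3c lower and 0 higher (16.7%), while 7 members lay above 0 and the median log2 fold change was -0.06. In the fit with tdTomato+ stroma none of the 3 passed, with edgeR adjusted p of 0.947 for Dpp4, 0.901 for Pi16 and 0.711 for Sema3c. Their log2 fold changes in GFP+ stroma were -0.83, -0.96 and -1.11 in that fit. Pi16, a peptidase inhibitor that marks progenitors of connective tissue, was at 516, 507, 479 and 453 CPM untreated and 273, 197 and 276 CPM after E+P (log2 fold change -0.98, SE 0.13, edgeR adjusted p 0.0011). Dpp4, a membrane peptidase, was at 317, 333, 239.6 and 230.3 CPM untreated and 140.3, 143 and 183 CPM after E+P (log2 fold change -0.85, SE 0.15, edgeR adjusted p 0.0089). Neither gene's groups overlapped. Ly6a, which encodes the Sca-1 antigen, and Cd34 had log2 fold changes of 0.46 and 0.18 (edgeR adjusted p 0.142 and 0.651). Of 18 genes of adipogenesis and lipid storage, 0 were called by edgeR or voom and 2 by DESeq2, and 7 had an unadjusted p under 0.05 with a lower level. Their median log2 fold change was -0.30, and Pparg, the master regulator of adipogenesis, had -0.21 (edgeR adjusted p 0.651).

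Called matrix genes moved in both directions. Of 38 collagens tested, Col23a1 and Col27a1 rose and Col6a6 fell (7.89%), and 31 had a log2 fold change above 0, with a median of 0.45. DESeq2 called 8 collagens higher and 2 lower, and voom 3 and 1. An unadjusted edgeR p under 0.05 was seen for 18 higher and 2 lower collagens, against 2177 of the 15199 genes tested. Col23a1, a transmembrane collagen, was at 10.4, 9.95, 11.4 and 10.5 CPM untreated and at 28.1, 38.7 and 26.2 CPM after E+P (log2 fold change 1.56, SE 0.16, edgeR adjusted p 1.4e-04). Col6a6, a chain of microfibril-forming collagen VI, was at 197, 161, 172 and 105 CPM untreated and at 59.9, 66.9 and 59.3 CPM after E+P (log2 fold change -1.35, edgeR adjusted p 0.0022). In both genes every treated library lay on its own side. Of 24 genes for collagen synthesis and crosslinking, the lysyl hydroxylases Plod1 (log2 fold change 0.94) and Plod2 (1.27) rose and the procollagen protease enhancer Pcolce2 fell (-1.10), which is 12.5%. In this list 11 higher and 2 lower genes had an unadjusted edgeR p under 0.05. Plod1 lies in a stretch of chromosome 4 where Zfp990, Zfp979 and Masp2 were called lower, and whether treated and untreated mice differ in genotype there was not tested. P4ha3, a prolyl hydroxylase subunit for collagen, was at 3.96, 4.06, 16.6 and 3.73 CPM untreated and at 104, 108 and 89.5 CPM after E+P. Untreated replicate 3 stood above the other untreated libraries, and the log2 fold change of 3.79 (SE 0.60) had an adjusted p of 0.032 (edgeR).

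Of 36 matrix proteases and their inhibitors, 5 rose and 1 fell (16.7%, median log2 fold change 0.33). DESeq2 called 8 higher and 2 lower, voom 4 and 1, and the fit with tdTomato+ stroma 1 and 0. Adamts19, Adamts6, Adamts15, Mmp15 and Mmp19 rose, with log2 fold changes of 2.57, 1.72, 1.12, 2.65 and 1.09. They were called in 7, 4, 4, 3 and 7 of the 7 fits that left out a library. The inhibitor Timp3 fell from 1092, 823, 803 and 977 CPM to 389, 409 and 527 CPM (log2 fold change -1.06, SE 0.15, edgeR adjusted p 0.0014). The groups did not overlap for any of these genes. Of 38 matrix glycoproteins, the elastic fibre proteins Ltbp2 (log2 fold change 2.32), Emilin1 (0.90) and Fbln2 (0.80) rose and vitronectin, Vtn, fell (-1.34), in all 10.5%. Among 12 small leucine-rich proteoglycans 0 were called by edgeR or voom and 3 by DESeq2, and 1 higher and 3 lower genes had an unadjusted p under 0.05. Of 44 integrin and focal adhesion genes, Itgb3 and Cav1 rose and Itga11, a collagen receptor subunit, and Itgb7 fell (9.09%).

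**Figure D4:**
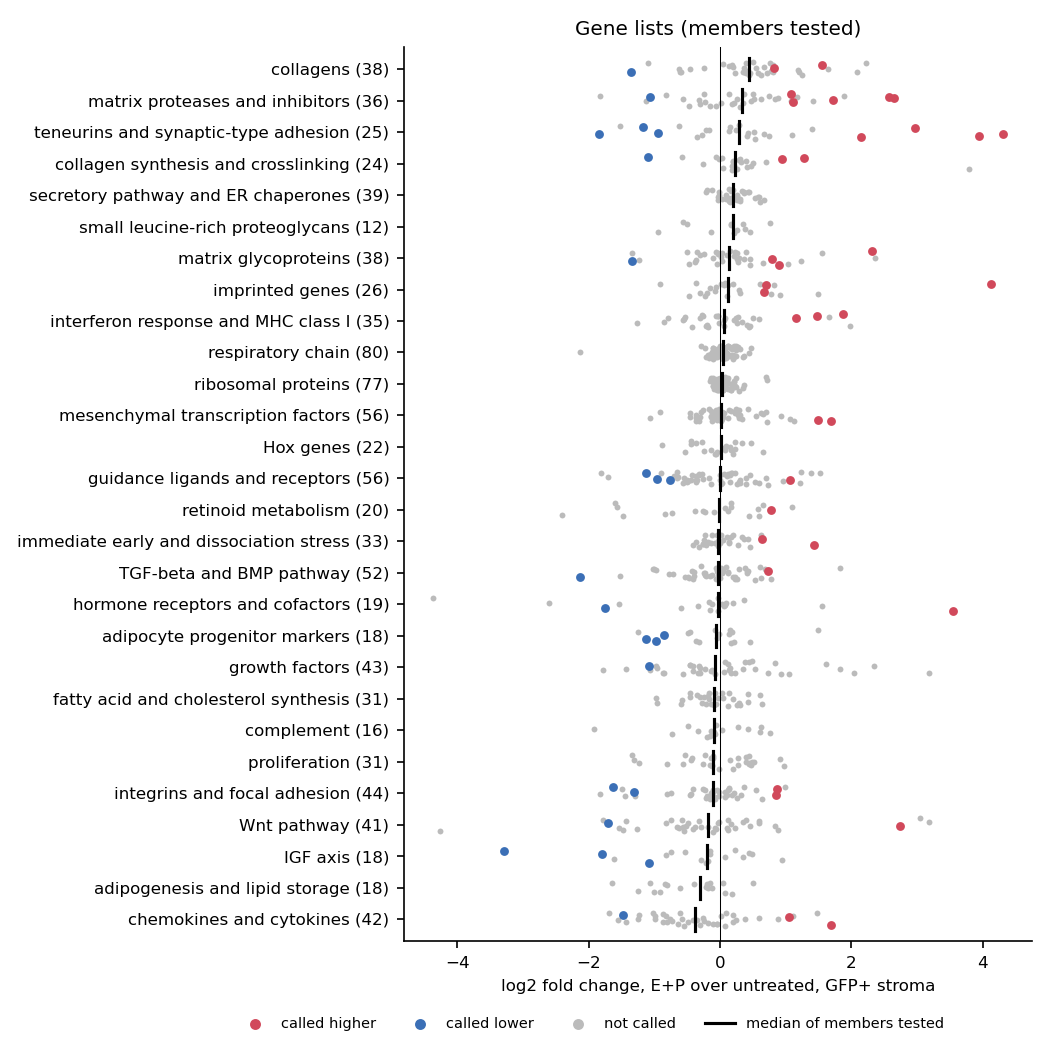
Log2 fold change of E+P over untreated GFP+ stroma for the tested members of 28 gene lists (number tested in brackets). Each point is a gene, red where called higher, blue where called lower and grey otherwise, and the black bar is the median of the members. The teneurin and synaptic-type adhesion genes hold 7 calls among 25, in both directions. Lists were written with earlier results of these data known.

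Cell adhesion genes known from the nervous system had the largest share of edgeR calls among the lists, with 4 higher and 3 lower of 25 tested (28%, median log2 fold change 0.29), against 1.23% of all genes. Only 25 of the 41 members had enough reads to be tested. The list was written with earlier results of these data known, so its rank among the lists is not independent of them. Tenm4, a teneurin that forms adhesive pairs across cell contacts, was at 2.18, 2.37, 1.87 and 0.486 CPM untreated and at 28.8, 17.96 and 34.9 CPM after E+P (log2 fold change 3.95, SE 0.38, edgeR adjusted p 4.2e-04). Cadm2, an immunoglobulin-type adhesion molecule, was at 0.396, 0.609, 0.480 and 0.324 CPM untreated and at 9.07, 11.7 and 6.95 CPM after E+P (log2 fold change 4.32, SE 0.33, edgeR adjusted p 2.2e-05). Neither gene's groups came near each other. Cadm2 had nearly all its reads in the E+P libraries, so it entered the test through the group where it is high. Its relative Cadm1 rose from at most 2.44 CPM to at least 10.9 CPM and the neural cell adhesion molecule Ncam1 with a log2 fold change of 2.14. A further relative, Cadm3, fell (log2 fold change -1.18), as did Nrcam (-1.84) and Opcml (-0.94). Dlgap1, a scaffold of synapses that is outside this list, rose with a log2 fold change of 2.93. The summed level of 6 Schwann cell markers was 15.3 to 20.5 CPM untreated and 12.5 to 14.6 CPM after E+P. Whether such cells brought neural genes into the sort was not tested. Of 56 axon guidance genes, the netrin receptor Unc5a rose and Sema3b, Sema3c and the semaphorin receptor Nrp2 fell (7.14%, median log2 fold change 0.00).

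Immune signalling genes gave a mixed picture. Of 35 genes of the interferon response and MHC class I, Irf7, Ifi27l2a and Bst2 rose and 0 fell (8.57%, median log2 fold change 0.07). Irf7, a transcription factor induced by interferon, was at 31.4, 29.6, 55.4 and 34.8 CPM untreated and at 157, 129 and 131 CPM after E+P (log2 fold change 1.87, SE 0.20, edgeR adjusted p 8.6e-04), with groups well apart. Of 42 chemokine and cytokine genes, the chemokines Cxcl16 (log2 fold change 1.69) and Cxcl14 (1.05) rose and the scavenging chemokine receptor Ackr2 fell (-1.47), which is 7.14%, while the median log2 fold change was -0.38. The sum of the immune markers was 3.89 to 7.21 CPM untreated and 4.16 to 6.66 CPM after E+P. Among 33 immediate early and dissociation stress genes, Egr2 (log2 fold change 1.43) and Ccn2 (0.63) rose (6.06%). Of 26 imprinted genes, the thyroid hormone-inactivating deiodinase Dio3 (log2 fold change 4.13), Peg10 (0.70) and Plagl1 (0.68) rose (11.5%, median log2 fold change 0.12). Dio3 stood at no more than 0.324 CPM in untreated libraries, near the floor of counting, so it entered the test through the group where it is high. The retinaldehyde dehydrogenase Aldh1a1 (log2 fold change 0.77) was the gene called by edgeR among 20 of retinoid metabolism (5%), a call lost without robust dispersions and in the fit with tdTomato+ stroma. DESeq2 called 1 higher and 3 lower genes of this list.

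No member was called by edgeR in 7 further lists, at 1.23% for all genes. In proliferation (31 genes tested, median log2 fold change -0.10) DESeq2 and voom called 0, and 1 higher and 1 lower gene had an unadjusted p under 0.05. In the secretory pathway (39 genes, median 0.20) DESeq2 called 4 and voom 0, and 11 genes, all higher, had an unadjusted p under 0.05. DESeq2 called 1 and voom 0 of 16 complement genes, with 3 higher and 2 lower at an unadjusted p under 0.05. Neither tool called any of 22 Hox genes, 31 genes of fatty acid and cholesterol synthesis, 77 ribosomal protein genes or 80 respiratory chain genes. In these 4 lists the unadjusted p was under 0.05 for 0, 5, 1 and 1 genes.

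The luminal keratin gene Krt19 was among the lower genes. It was at 10.6, 17.7, 10.98 and 10.1 CPM untreated and at 1.98, 2.68 and 2.74 CPM after E+P (log2 fold change -2.30, SE 0.27, edgeR adjusted p 2.9e-04). Of the 12 luminal markers 7 could be tested, all 7 had a log2 fold change below 0, and Krt19 was the member that passed with edgeR. Krt8 and Krt18 did not pass (edgeR adjusted p 0.220 and 0.084). Without Krt19, the other 11 markers summed to 0.160%, 1.21%, 0.303% and 0.160% of their level in untreated GFP+ luminal cells in untreated replicates 1 to 4, and to 0.110%, 0.0437% and 0.0464% of their level in treated luminal cells in E+P replicates 1 to 3. Scaling luminal expression of each lower gene by these shares, and taking the luminal population with the higher result, gave under 5% of the measured value in all untreated libraries for 69 of the 75 genes. It gave 5% to 20% at most for Zfp990, Irx2, Notch3, Abca3 and Fads2, and 86.4% in untreated replicate 2 for Krt19. In untreated replicates 1, 3 and 4 the scaled Krt19 values were lower, at 2.31, 4.39 and 2.32 CPM. Krt19 was measured there at 12.1, 12.6 and 11.5 CPM, with all 28 libraries scaled together. For Esr1 the highest share was 2.64%, for Igfbp5 3.58% and for Smpd3 0.0036%. Without untreated replicate 2, the library richest in epithelial markers, 132 of the 187 genes remained called.

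Of the markers of blood vessels and their supporting cells, edgeR called Tek, 1 of 5 endothelial genes tested, and Notch3, 1 of 9 pericyte and smooth muscle genes. The 8 endothelial markers summed to 166.05 to 238 CPM untreated and 121 to 137.5 CPM after E+P, with Cldn5 at 0 in all 7 libraries. Most of that sum was Tek, the angiopoietin receptor, which was called lower, from 134.1 to 213 CPM to between 71.2 and 84.9 CPM (log2 fold change -1.08, edgeR adjusted p 0.0010). The 9 pericyte and smooth muscle markers summed to 152 to 276 CPM untreated and 126 to 159 CPM after E+P, sums that overlap, and Notch3 fell (log2 fold change -1.36). The part of these cells in the lower genes was not tested. Basal epithelial markers summed to 3.73 to 7.45 CPM and 1.91 to 2.96 CPM, skeletal muscle markers to 8.21 to 11.8 CPM and 6.71 to 14.3 CPM, and adipocyte markers to 19.1 to 55.6 CPM and 12.5 to 23.6 CPM, in untreated and E+P libraries in turn. Milk protein markers reached 10.5 CPM in an untreated and 1.06 CPM in an E+P library, and Wap and Csn1s2a were at 0 in all 7.

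The E+P response was set against that of tdTomato+ stroma from the same mice, the stromal cells without a history of Pdgfra-Cre. A difference of responses was tested as the interaction of subset and treatment in a fit of 14 libraries and 17783 genes. This fit did not pair the libraries of a mouse. With edgeR, 8 genes passed (0.045%), all with a higher response in GFP+ stroma (0.045%), and 0 (0.0%) with a lower one, while 1858 genes had an unadjusted p under 0.05. The count depended on single mice, since it was 2 without untreated mouse 1, 5 without untreated mouse 3, 13 without untreated mouse 4, and 1, 2 and 1 without E+P mice 1, 2 and 3. With the mouse as a block, which pairs the libraries of a mouse, 13 genes passed, 5 of them among the 8. Both comparisons share the GFP+ libraries.

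Nrk had the clearest difference. In tdTomato+ stroma it was at 5.32, 2.80, 4.51 and 4.08 CPM untreated and at 1.89, 1.24 and 1.53 CPM after E+P, all below, whereas all treated GFP+ libraries lay above the untreated ones. The responses differed by 4.80 on the log2 scale (SE 0.45, edgeR adjusted p 8.5e-05). Tenm4 in tdTomato+ stroma was at 73.9, 61.4, 55.2 and 59.3 CPM untreated and at 96.1, 53.5 and 56.5 CPM after E+P, which overlap. Its response in GFP+ stroma was higher by 3.82 on the log2 scale (SE 0.48, edgeR adjusted p 0.0037), from a far lower untreated level. Heph (difference 2.61, SE 0.34, edgeR adjusted p 0.0037) had means of 8.68 and 12.1 CPM in untreated and treated tdTomato+ stroma. Ano4, of the anoctamin membrane protein family, differed by 6.36, and Gfra1, which encodes a GDNF co-receptor, by 2.76. In treated tdTomato+ stroma Ano4 was at 0.0510, 0.0494 and 0.0612 CPM, under 3 reads in each library, so the size of its difference is uncertain. For Gfra1 the difference was lost with the mouse as a block (adjusted p 0.0195). Col15a1 (2.40) and Vwa1 (2.03) also passed.

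Several strong responses of GFP+ stroma did not pass this test against tdTomato+ stroma without the mouse as a block, though Ngfr and Grk3 passed with it. The difference for Ngfr was 3.38 (SE 0.56, edgeR adjusted p 0.0386, and 0.0024 with the mouse as a block) and for Grk3 2.66 (adjusted p 0.0427, and 0.0024 with the block). For Cadm1 it was 3.57 (adjusted p 0.0397, and 0.0503 with the block). The log2 fold changes in tdTomato+ stroma were 2.59 for Greb1, -1.18 for Esr1 and -0.92 for Igfbp5, in the same direction as in GFP+ stroma.

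**Figure D5:**
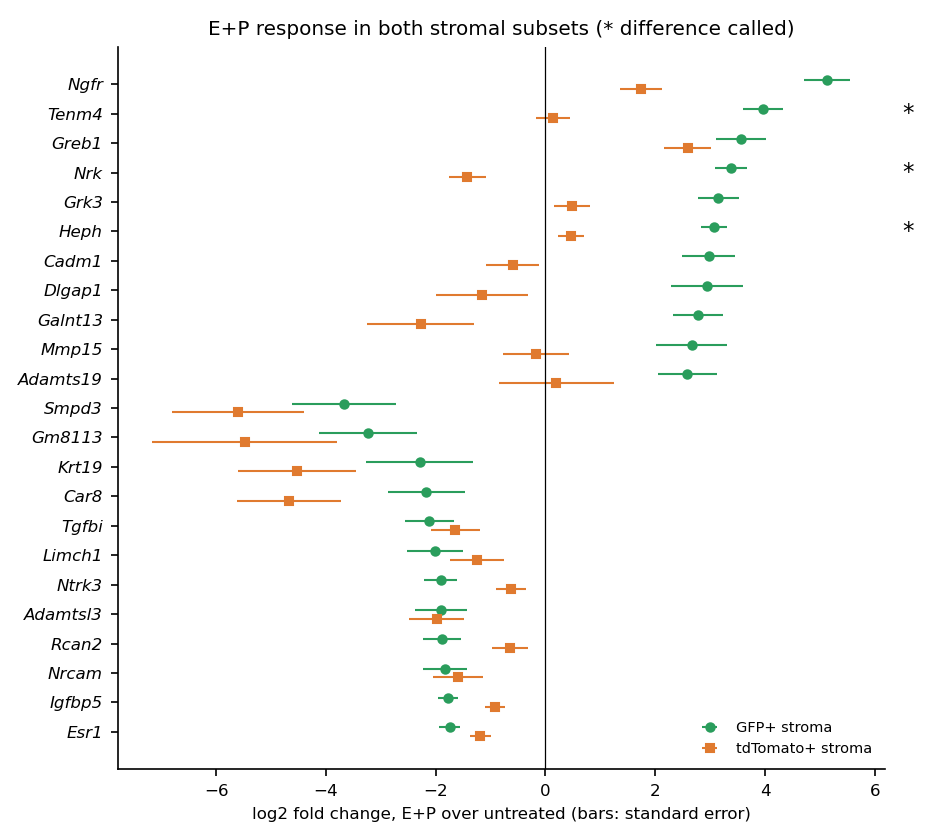
Log2 fold change of E+P over untreated, with its standard error, in GFP+ stroma (circles) and tdTomato+ stroma (squares) for genes with the largest changes, from the fit of all 4 stromal groups. A star marks Tenm4, Nrk and Heph, the named genes whose responses differed at an adjusted p under 0.01.

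Against GFP+ luminal cells of the same mice, 300 of 17504 genes differed in their response (1.71%, edgeR interaction of lineage and treatment). The response was higher in stroma for 155 (0.886%) and lower for 145 (0.828%), but for 204 and 104 when counts were scaled by library size alone, which moved the median difference of all genes from 0.00 to 0.13 on the log2 scale. This fit also did not pair the libraries of a mouse. With the mouse as a block 165 genes passed, 127 of them among the 300. Without untreated mouse 1 the count was 61, and without E+P mice 1, 2 and 3 it was 26, 15 and 18. Among the lower responses were Smpd3 (difference -6.49) and Gm8113 (-4.76), both of which fell in stroma and were near the floor in GFP+ luminal cells, at 0 to 0.791 and 0.0571 to 0.916 CPM, so the size of these differences is uncertain. Another was Pcsk6, a proprotein convertase (-5.58). Pcsk6 had means of 143 and 43.9 CPM in untreated and treated GFP+ stroma and of 1.37 and 21.6 CPM in untreated and treated luminal cells. Heph (difference 2.36, SE 0.21, edgeR adjusted p 1.3e-04) and Grk3 (3.49, adjusted p 0.0013) had the higher response in stroma. For Esr1 the difference was 0.53 (SE 0.52, edgeR adjusted p 0.626), for Igfbp5 0.25 (SE 0.41, adjusted p 0.803) and for Greb1 0.90 (SE 0.81, adjusted p 0.585), so differences of this size were within the error of the test. Their log2 fold changes in luminal cells were -2.28, -2.03 and 2.65.

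Because progesterone and estrogen receptors bind known DNA motifs, promoter windows of the called genes were searched for these letters. The windows run from 250 bases before to 50 after the start of each RefSeq transcript (GRCm38.p6), 32851 in all, and 70 of the 112 higher and 60 of the 75 lower genes had at least 1. A motif of the type bound by the progesterone and glucocorticoid receptors, GNACANNNTGTNC, was present in 3 of 96 windows of higher genes (3.12%), in 0 of 69 windows of lower genes in 0.304% of windows of all genes tested and in 0.475% of all windows. An estrogen response element without mismatch, GGTCANNNTGACC, was present in 0 windows of either group. It was in 1 of 13157 windows of all genes tested (0.0076%) and in 23 of all windows (0.07%). The element is so rare in these windows that a count of 0 says nothing about estrogen receptor targets. Both motifs read the same on either strand. The shorter site AGGTCA, a single arm of that element, read on both strands, occurred in 13.5% of windows of higher genes, 11.6% of windows of lower genes, 12.3% of windows of all genes tested and 16.3% of all windows. The 250 bases upstream of the 3 genes with the receptor motif, and of Greb1 for its single arm, are shown 5′ to 3′ on the strand of the gene, with the motif in capitals.
Serpina3n, chr12:104406458-104406707, plus strand: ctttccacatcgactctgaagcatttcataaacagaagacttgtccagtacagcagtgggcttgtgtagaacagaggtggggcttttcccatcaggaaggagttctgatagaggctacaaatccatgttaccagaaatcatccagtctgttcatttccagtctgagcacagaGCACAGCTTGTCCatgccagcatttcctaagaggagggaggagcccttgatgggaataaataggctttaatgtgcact
Cpxm1, chr2:130397630-130397879, minus strand: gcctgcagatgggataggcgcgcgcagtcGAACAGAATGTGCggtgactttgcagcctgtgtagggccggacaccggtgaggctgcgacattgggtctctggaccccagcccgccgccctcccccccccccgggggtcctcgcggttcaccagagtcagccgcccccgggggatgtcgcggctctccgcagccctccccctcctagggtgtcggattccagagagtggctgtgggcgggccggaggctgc
Fyb2, chr4:104913311-104913560, plus strand: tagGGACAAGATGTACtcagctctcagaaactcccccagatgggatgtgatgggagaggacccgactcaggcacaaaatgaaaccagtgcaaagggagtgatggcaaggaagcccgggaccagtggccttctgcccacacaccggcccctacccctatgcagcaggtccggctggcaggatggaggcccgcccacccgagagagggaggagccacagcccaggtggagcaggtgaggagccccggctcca
Greb1, chr12:16800887-16801136, minus strand: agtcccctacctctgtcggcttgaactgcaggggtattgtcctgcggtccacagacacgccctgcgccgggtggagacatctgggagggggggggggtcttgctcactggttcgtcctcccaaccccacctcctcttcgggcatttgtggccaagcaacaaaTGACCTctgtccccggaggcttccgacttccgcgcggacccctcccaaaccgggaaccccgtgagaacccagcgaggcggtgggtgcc

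The motif ended 66 bases before the start in Serpina3n, 209 in Cpxm1 and 235 in Fyb2, and the single arm in Greb1 ended 83 bases before it. Serpina3n, a secreted inhibitor of serine proteases, was at 39.2, 60.3, 45.0 and 35.97 CPM untreated and at 229, 141 and 147 CPM after E+P (log2 fold change 1.93, SE 0.21, edgeR adjusted p 0.0012). Cpxm1, a carboxypeptidase-like secreted protein, was at 241, 175, 252 and 274 CPM untreated and at 507, 523 and 395 CPM after E+P (log2 fold change 1.01, SE 0.15, edgeR adjusted p 0.0024). Fyb2, an adaptor protein, was at no more than 0.729 CPM untreated and at no less than 7.12 CPM after E+P (log2 fold change 3.73, edgeR adjusted p 6.1e-05). Most reads of Fyb2 were in the E+P libraries. These genes were picked for the motif after the motif search, and a match does not show binding. In all 3 the treated libraries lay above the untreated ones, as was so for each of the called higher genes.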

How the data were processed

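RNA of sorted cell populations from single mice was made into stranded libraries from 2 ng of total RNA, with ribosomal RNA depletion and 15 cycles of PCR, after RNA quality had varied widely over the series. The authors aligned paired reads to GRCm38.p5 with STAR 2.5.2a and deposited raw read counts per gene, without normalization. The GENCODE release and the strand setting of counting are not given in the sources used here, so reads of overlapping or antisense genes cannot be told apart. GENCODE M21 supplied symbols and coordinates and held 50376 of 50600 gene IDs. Groups came from sample titles.

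Counts were scaled by TMM, filtered by filterByExpr and tested, two-sided, in edgeR 4.0.16 (R 4.3.3) by its robust quasi-likelihood method, and p-values were adjusted by Benjamini-Hochberg over all genes tested. Genes with an adjusted p under 0.01, the threshold of the study, were called. The SE is the absolute log2 fold change divided by the square root of F. Named genes were, among called genes without overlap that reached 10.0 CPM in the higher group, the 12 that rose most and the 12 that fell most, all called members of the gene lists with the receptors and ligands described, the 5 largest differences in each direction of response, and genes the study names. A few of them are not reported here. Genes, members and lists were chosen with earlier results of these data known. DESeq2 1.42.0, limma-voom 3.58.1, other scalings and filters, thinning, a replicate block and leaving out libraries were alternatives. Replicate numbers of untreated and E+P libraries name different mice, and deviations of same-numbered libraries correlated at -0.01, 0.05 and -0.07, so they were not paired. Populations of the same mouse were taken as paired from the titles, with correlations of 0.02 to 0.13 to tdTomato+ stroma and 0.04 to 0.11 to GFP+ luminal cells.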

Additional observations from a re-analysis of the deposited data

Results flagged for a closer look

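In untreated GFP+ stroma, 4 of 91 groups of values examined had a library whose gap to its nearest neighbour took up more of the range than Dixon's critical value for 4 samples, and chance flags about 1 in 20 groups. Krt19 (ratio 0.886), Krt8 (0.836) and Pdgfc (0.876) were highest in untreated replicate 2, the library with the most epithelial markers. Krt8 was at 18.8 CPM there and at 1.85 to 4.64 CPM in the other untreated libraries. Alx4 (ratio 0.95) was highest in untreated replicate 3, at 48.6 CPM against 32.6 to 33.4 CPM, which still lay below the 99.6 CPM of the lowest E+P library.

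Responses that differed between GFP+ and tdTomato+ stroma by the interaction test included those of Ano4 (difference on the log2 scale 6.36), Nrk (4.80), Tenm4 (3.82) and Gfra1 (2.76). In Ano4, mean levels were 2.09 and 11.8 CPM in untreated and treated GFP+ stroma and 0.898 and 0.0539 CPM in tdTomato+ stroma. The last of these levels lies under 3 counts per library, so the size of the Ano4 difference is uncertain. Gfra1 was at 9.27 and 16.0 CPM in GFP+ stroma against 10.7 and 2.73 CPM in tdTomato+ stroma.

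Responses that differed between GFP+ stroma and GFP+ luminal cells were those of Ror2 (7.63), Tnnt2 (6.67), Fbln5 (5.32), Dnm3os (5.25) and Ccdc162 (4.65), higher in stroma, and Smpd3 (-6.49), Tnfrsf19 (-6.18), Pcsk6 (-5.58), St6gal1 (-4.85) and Gm8113 (-4.76), lower in stroma. Among the higher responses, Fbln5 was at means of 0.365 and 0 CPM in untreated and treated luminal cells, and Dnm3os at 0.273 and 0 CPM. These levels are near the floor of counting. In stroma the log2 fold changes of Fbln5 and Dnm3os were -0.24 and 0.16, so the size of both differences is uncertain. Ror2 was at means of 2.60 and 0.0227 CPM in luminal cells, and Tnnt2 at 0 and 0.152 CPM in stroma. With the mouse as a block these 5 differences did not pass, with edgeR adjusted p of 0.0121 for Ror2, 0.0449 for Tnnt2, 0.0184 for Fbln5, 0.0108 for Dnm3os and 0.0271 for Ccdc162. The 5 lower ones passed. Smpd3 and Gm8113 were at no more than 0.916 CPM in any GFP+ luminal library. Tnfrsf19 was at means of 17.5 and 4.89 CPM in untreated and treated GFP+ stroma and at 0.257 and 5.50 CPM in luminal cells.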

How the results depend on the processing

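For the E+P response of GFP+ stroma (187 genes), 465 genes passed at an adjusted p of 0.05, 755 without a filter on low counts, 512 with DESeq2 and 41 with all 4 stromal groups in the fit, and 81 to 229 with a library left out. Other size factors (183), library size scaling (202), voom, thinned counts (173) and non-robust dispersions (177, chosen after seeing the data) stayed within 1.5 times. Of the 73 called genes that are named or in a list, none changed direction in any alternative, but their groups do not overlap, so this was hardly possible. All 73 stayed called with DESeq2 and without the filter, and 66 with voom. With the replicate block 43 stayed called, without E+P replicate 2 34, and with all 4 stromal groups in the fit 25. For the difference from tdTomato+ stroma (8 genes, 0.045% of those tested), 0.242% passed at 0.05, 1.42% without the filter, 0.624% with DESeq2, 0.0225% with voom, and 0.00535% to 0.0743% with a mouse left out. For the difference from GFP+ luminal cells (300 genes), it was 1104 at 0.05, 596 without the filter, 1086 with DESeq2 and 15 to 331 with a mouse left out. Library size scaling gave 204 higher and 104 lower in place of 155 and 145. The cause of these shifts was not tested, except that fewer samples or more genes entered where libraries were left out or the filter dropped. With the replicate number as a block, 146 genes passed for the response of GFP+ stroma, though these numbers do not pair the mice. With the mouse as a block, which does pair the samples, 13 (0.0731%) and 165 genes passed for the differences from tdTomato+ stroma and luminal cells. Of these, 5 and 127 were also called without the block. Levels under 3 counts, 0.133 to 0.255 CPM by library, could not be told from 0.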

Other observations

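Of the 187 genes called in GFP+ stroma, 7 separated treated from untreated libraries in the same direction in all 4 sorted populations, GFP+ and tdTomato+, stromal and luminal (3.74%). All 187 already separate in GFP+ stroma, and of the 2162 tested genes that do so, 34 (1.57%) separated in all 4 populations. They were picked after their values were seen, and the 4 populations of a mouse are not independent animals. Greb1 and Rab6b, a GTPase of vesicle traffic, were higher and Esr1, Igfbp5, Gpc6, Masp2 and Zfp979 lower after E+P. Gpc6, a cell surface glypican, was at 291 to 364 CPM in untreated and 143 to 177 CPM in treated GFP+ stroma when all 28 libraries were scaled together. In tdTomato+ luminal cells it was at 23.4 to 57.1 and 5.77 to 9.77 CPM. Rab6b was at 4.59 to 7.42 and 22.6 to 24.4 CPM in GFP+ stroma.

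Zfp979 and Masp2 lie near each other on chromosome 4, in a stretch from 145510759 to 148615499 (GRCm38) that opens with Zfp990. Of 31 genes tested there, these 3 were called lower and Plod1 higher. Zfp990 was at 3.85 to 6.43 CPM in untreated and at 0, 0.106 and 0 CPM in treated GFP+ stroma, and at 47.5 to 130 CPM in untreated and at most 0.143 CPM in treated tdTomato+ luminal cells. In tdTomato+ stroma, untreated replicate 4 was at 0 CPM as well, so that the groups overlapped there. Zfp979 was at 0 CPM in all 6 treated luminal libraries and at 5.42 to 15.3 CPM in the 8 untreated ones. Both are zinc finger genes of a cluster of near-identical copies, so their counts are uncertain. Whether the treated and untreated mice differ in genotype in this stretch was not tested, so the values of Zfp990, Zfp979, Masp2 and Plod1 cannot be put down to E+P.

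Ctla2a, which encodes an inhibitor of cathepsin-type proteases, was chosen here after its values were seen because it had the largest fold change of all genes that rose without passing. It was at 1.06, 2.64, 0.0533 and 0.243 CPM in untreated and at 194, 26.7 and 88.5 CPM in treated GFP+ stroma (log2 fold change 6.70, SE 1.10, edgeR adjusted p 0.0427). The groups were far apart, but the libraries within each differed several-fold.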
